A study of Mus musculus with 10 samples.

Results

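Stat3 and 9 genes known as its targets downstream of the kinase ALK (Socs3, Pim1, Pim2, Pim3, Bcl3, Bcl6, Cebpb, Batf and Batf3) were followed across 10 primary T cell lymphomas of the mediastinum, which arose in mice with an NPM-ALK transgene. The genes were taken by name, each through the probe set with a single gene symbol and the highest mean. All 10 were found among 19937 genes with such a probe set, and all 10 passed the filter on dim probe sets that left 12670 genes to test. Socs3 had a second probe set, so the 10 genes were covered by 11.

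Of the 10 lymphomas, 5 came from WASP-deficient NPM-ALK mice, labelled WASP -/-, and 5 from NPM-ALK mice with intact WASP, labelled WT. All mice carried the NPM-ALK transgene on a C57BL/6 background, so lymphoma without NPM-ALK was not part of the comparison, and tumours arose at 4 to 5 months of age. The study design names both sexes for the WASP-deficient mice and no sex is labelled per animal, but Xist, the RNA that coats the inactive X chromosome of female cells, was low on all 5 WASP-deficient arrays (4.50 to 5.58) and on WT array 3 (4.40), against 11.52 to 11.90 on the other 4 WT arrays. The promoter that drives the transgene is not given in the sources used here. RNA of whole tumour tissue was hybridised to 1 microarray per mouse, and levels below are log2 intensities.

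NPM-ALK joins the start of nucleophosmin to the kinase domain of ALK and is active without a ligand. It phosphorylates STAT3, which then pairs up, enters the nucleus and binds DNA, often at the palindrome TTCNNNGAA. Among the genes STAT3 switches on are a brake on its own activation (SOCS3), survival kinases (PIM) and other transcription factors, and ALK-positive lymphoma cells depend on this route for growth and survival. The activity of STAT3 is set by phosphorylation, which transcript levels do not measure.

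The arrays had median intensities of 116.7 to 122.7 on the linear scale. Was, the gene that was disrupted, separated the genotypes on all 10 arrays, at 7.92 to 8.20 in WASP-deficient and 9.11 to 9.34 in WT lymphomas. Cd3e and Thy1, which mark T cells, were high throughout, at 12.06 to 12.59 and 11.86 to 12.31. Not all T cell markers were, with Cd5 at 6.57 to 7.38, Cd4 at 7.72 to 9.61 and Cd8a at 6.38 to 10.42. Cd2, which encodes a T cell adhesion molecule, was at 11.18 to 11.52 on 3 arrays (WASP-deficient 1, WT 4 and WT 5), here called Cd2-high because they lay at a log2 of 9 or more. It was at 6.10 to 6.90 on the other 7, called Cd2-low, which held 4 WASP-deficient and 3 WT lymphomas. The study defined no such classes, which come from the measured Cd2 level, so they are compared with no test. They were also used in some fits of genotype, as a covariate or to keep the Cd2-low arrays alone. Cd3d and Cd3g, which encode parts of the T cell receptor complex, differed between the classes. Cd3d was at 5.26 to 6.47 on Cd2-high and 8.96 to 10.08 on Cd2-low arrays. Cd3g was at 6.29 to 10.24 and 11.45 to 12.23. Cd3e and Cd247, of the same complex, overlapped between the classes, with Cd3e at 12.29 to 12.59 and 12.06 to 12.38. Of 10 T cell markers, 2 lay above (Cd2 itself and Zap70) and 2 below (Cd3d and Cd3g) on the Cd2-high arrays. In whole tumour RNA, fewer cells of a type and less RNA per cell cannot be told apart.

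Promoter sequence is shown for Socs3 and Bcl6 because these genes had their lowest levels on the same 4 arrays, as described further on, and because both hold the STAT palindrome near a transcription start. The windows are RefSeq sequence of build GRCm38.p6, read 5′ to 3′ on the strand of the gene, with each TTCNNNGAA in capitals. The motif was searched from 250 bases before to 50 bases after each annotated start, and since it is its own reverse complement a single search covers both strands.
Socs3, chr11:117969500-117969532, minus strand: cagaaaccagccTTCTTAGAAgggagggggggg
Bcl6, upstream start, chr16:23988950-23988982, minus strand: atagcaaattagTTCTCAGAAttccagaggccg
Bcl6, downstream start, chr16:23981351-23981463, minus strand: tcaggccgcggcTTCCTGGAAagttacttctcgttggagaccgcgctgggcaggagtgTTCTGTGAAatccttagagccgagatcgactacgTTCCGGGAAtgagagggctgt
In Socs3 the motif begins 154 bases before the start. Around the downstream start of Bcl6 it occurs 3 times, beginning 168, 122 and 88 bases before it, and around the upstream start once, 118 bases before it. Only 11 of 32851 promoters in the table, or 0.0335%, hold 3 or more copies. Of the 10 genes, 3 have at least 1 copy, the third being Batf3 (TTCCACGAA, beginning 239 bases before its start), against 9.55% of all 27025 genes in the table. Because the 10 were chosen as STAT3 and its known targets, this is a description with no test. Whether the motif plays a part in the Socs3 and Bcl6 levels was not tested. The promoters of Stat3, Pim1, Pim2, Pim3, Bcl3, Cebpb and Batf do not hold these letters in this window, which says nothing about binding elsewhere.

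Stat3, the transcription factor itself, varied little from tumour to tumour. It stood at 10.90, 10.85, 10.62, 10.77 and 10.88 in WASP-deficient lymphomas 1 to 5, against 10.90, 10.98, 10.75, 11.05 and 10.98 in WT lymphomas 1 to 5. All 5 WASP-deficient arrays were below the WT median, but the genotypes overlapped. Its range over the 10 arrays, 0.43, was wider than that of 20.6% of the genes tested. The log2 difference, WASP-deficient minus WT, was -0.13 (SE 0.08, 95% confidence interval -0.32 to 0.06), and it did not pass (limma adjusted p = 0.999). On the linear scale the interval runs from 0.803 to 1.04 of the WT level.

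Socs3 encodes the protein that binds cytokine receptors and JAK kinases to shut STAT3 activation down. On the probe set used, 4 arrays lay apart from the other 6. It was at 9.39, 9.41, 8.71, 8.71 and 8.69 in WASP-deficient lymphomas and at 9.48, 9.60, 8.62, 9.17 and 9.19 in WT lymphomas. WASP-deficient arrays 3, 4 and 5 and WT array 3 were thus within 8.62 to 8.71, and the other 6 within 9.17 to 9.60. The second Socs3 probe set had its 4 lowest values on the same arrays, at 7.0 to 7.29 against 7.31 to 7.78, but with no clear step between them. Between genotypes the difference was -0.23 (SE 0.22, interval -0.72 to 0.26) and the arrays overlapped.

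Bcl6, a zinc finger repressor known from germinal centre B cells and follicular helper T cells, varied most of the 10 genes. Its levels were 8.64, 8.35, 7.31, 6.37 and 6.80 in WASP-deficient lymphomas, against 8.29, 8.34, 6.75, 8.24 and 8.16 in WT lymphomas. The arrays low for Bcl6 were those low for Socs3, with 6.37 to 7.31 on these 4 and 8.16 to 8.64 on the other 6. The range of 2.26 was wider than that of 95.6% of the genes tested. Neither genotype was uniformly high or low, since 3 WASP-deficient arrays and 1 WT array made up the low set, and the difference of -0.46 (SE 0.47, interval -1.51 to 0.58) did not pass.

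The division seen for Bcl6 and Socs3 crossed both genotypes and all 4 low arrays were Cd2-low. Of the 9 genes other than Bcl6, 1 (Socs3) had these same 4 arrays below all others, and over all genes tested this held for 3.05%. Since Bcl6 itself chose the arrays, this is a description with no test. Xist was at 4.40 to 5.58 on 6 arrays, the 5 WASP-deficient ones and WT array 3. The 4 arrays low for Bcl6 were among these 6, and the 2 others, WASP-deficient 1 and 2, were among the highest for Bcl6. Whether sex plays a part in the Bcl6 and Socs3 levels was not tested. The summed linear intensity of 15 macrophage markers overlapped between the 4 low arrays and the other 6, at 6742 to 10170 against 7783 to 11567, as did that of 8 B cell markers, at 480 to 678 against 448 to 694. Of those B cell markers Cd79b and Ebf1 passed the filter and 6 were dimmer than it, Ms4a1, Pax5 and Cd79a among them.

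**Figure D1:**
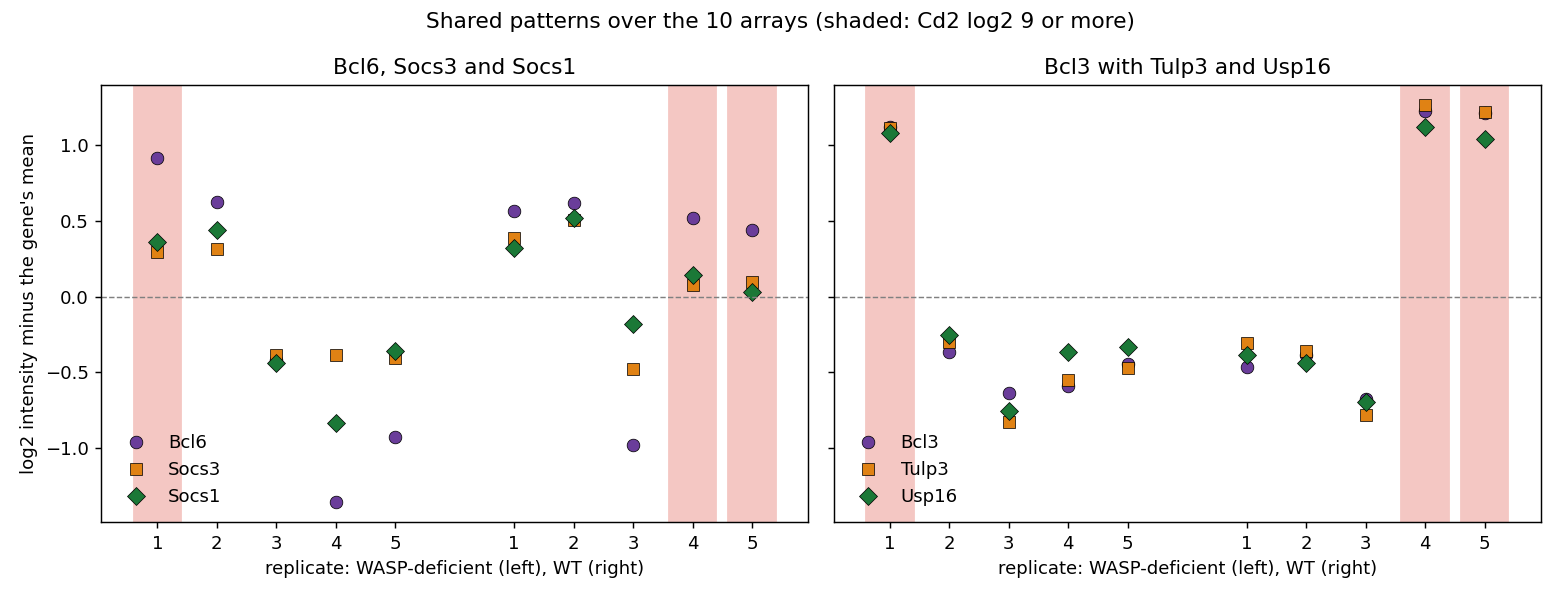
Levels of 6 genes on each array, as log2 intensity minus the gene's mean over the 10 arrays (vertical axis), by replicate with the WASP-deficient arrays left of the WT arrays (horizontal axis); shading marks the 3 Cd2-high arrays. Left, Bcl6, Socs3 and Socs1 are lowest on WASP-deficient arrays 3, 4 and 5 and WT array 3, and right, Bcl3, Tulp3 and Usp16 are highest on the 3 shaded arrays.

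By overall likeness, taken as the root mean square difference of centred log2 levels over the 10 arrays, the genes nearest to Bcl6 were Map3k20, a stress-activated kinase gene (0.386), and Cmah, a sialic acid hydroxylase gene (0.407). Bcl6 itself deviated from its mean by 0.786 on the same measure. Among 79 tested genes of the pathway outside the 10, 2 shared the 4 lowest arrays with Bcl6, or 2.53%, close to the 3.05% of all genes. These were Socs1, the relative of Socs3 that also blocks JAK kinases, at 7.29 to 7.94 on the 4 arrays and 8.15 to 8.64 on the others, and Zeb1, a zinc finger repressor, at 10.50 to 10.68 and 10.75 to 10.95. Zeb1 was chosen for naming after its values were seen.

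The 3 Pim genes encode serine/threonine kinases that promote survival and protein synthesis and are controlled mainly through their transcript levels. Pim1 was at 9.49, 9.08, 8.28, 8.83 and 8.70 in WASP-deficient lymphomas, against 9.14, 8.95, 9.02, 9.03 and 9.23 in WT lymphomas. WASP-deficient arrays gave both its highest value, on array 1, and its 3 lowest, on arrays 3, 4 and 5, so that the SD was 0.45 there and 0.11 in WT. The difference was -0.20 (SE 0.19, interval -0.62 to 0.22). Pim1 overlapped between the Cd2 classes, though not without WT array 4, when it lay higher on the Cd2-high arrays. Its nearest genes by the same measure were Dalrd3 (0.093), a gene of transfer RNA modification, and Kif4 (0.097), a chromosome-bound kinesin gene.

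Pim2 followed Cd2. Its levels were 8.22, 7.73, 7.43, 7.63 and 7.80 in WASP-deficient lymphomas and 7.79, 7.67, 7.55, 8.27 and 8.51 in WT lymphomas. The 3 Cd2-high arrays, at 8.22 to 8.51, lay above the 7 Cd2-low arrays, at 7.43 to 7.80. Genotypes overlapped, with a difference of -0.19 (SE 0.21, interval -0.65 to 0.26), which was -0.02 (SE 0.12) among the Cd2-low arrays alone.

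Pim3 was the one Pim gene with higher values in WASP-deficient lymphomas, at 9.23, 9.53, 9.34, 9.41 and 9.42, against 9.35, 9.42, 9.12, 9.01 and 9.10 in WT lymphomas. All 5 WASP-deficient arrays lay above the WT median and 2 of them above every WT array. The difference of 0.19 (SE 0.10, interval -0.03 to 0.41) had the smallest p of the 10 genes before adjustment (limma p = 0.0864, exact two-sided permutation p = 0.0952), and it did not pass. The lowest Pim3 levels were on WT arrays 4 and 5, both Cd2-high, and among Cd2-low arrays the difference was 0.13 (SE 0.11). Pim3 overlapped between the Cd2 classes, but without WT array 3, or without WASP-deficient array 1, it lay lower on the Cd2-high arrays than on all others.

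Bcl3 showed the widest step between the Cd2 classes of the 10 genes. This gene encodes an atypical IκB protein that works in the nucleus as a partner of the NF-κB subunits p50 and p52. It was at 9.27, 7.79, 7.52, 7.56 and 7.71 in WASP-deficient lymphomas, against 7.69, 7.77, 7.48, 9.37 and 9.36 in WT lymphomas. The Cd2-high arrays lay at 9.27 to 9.37 and the Cd2-low arrays at 7.48 to 7.79, which left a gap of 1.48 between the classes. A gap of 1 or more with the Cd2-high arrays on top was seen in 1.61% of the genes tested. The genotype difference, -0.36 with an SE of 0.48 over all arrays, was -0.03 with an SE of 0.09 once the Cd2 class was a covariate (interval -0.22 to 0.16). Because Bcl3 has this step between the classes, a smaller SE follows from such a covariate.

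Tulp3, a gene of trafficking into cilia, and Usp16, which encodes a histone H2A deubiquitinase, were nearest to Bcl3, at root mean square differences of 0.090 and 0.120 against 0.779 for the deviation of Bcl3 from its own mean. Tulp3 was at 10.13, 10.28 and 10.23 on WASP-deficient array 1 and WT arrays 4 and 5, and at 8.19 to 8.72 on the rest.

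Cebpb, a leucine zipper factor of myeloid cells and inflammation that ALK-positive human lymphoma also expresses, had levels of 7.58, 7.09, 7.28, 7.36 and 7.13 in WASP-deficient lymphomas and 7.11, 6.97, 7.37, 7.57 and 7.59 in WT lymphomas. The Cd2-high arrays were within 7.57 to 7.59 and the Cd2-low arrays within 6.97 to 7.37. The genotype difference was -0.03 (SE 0.14, interval -0.35 to 0.29).

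In all, 3 of the 10 genes (Pim2, Bcl3 and Cebpb) did not overlap between the Cd2 classes, all 3 higher on the Cd2-high arrays. Over all genes tested, 30.5% did not overlap, 14.4% above and 16.1% below, so a share of 30.0% among the 10 is at the background. Of 10 fibroblast and stroma markers, 5 lay above on the Cd2-high arrays and 0 below. The others overlapped, among them Acta2 at 9.30 to 10.24 on Cd2-high and 9.22 to 10.93 on Cd2-low arrays. The summed linear intensity of 10 fibroblast and stroma markers was 6765 to 10188 on the Cd2-high arrays and 3222 to 5681 on the Cd2-low arrays, with Dcn at 10.54 to 11.38 against 9.03 to 10.41. Macrophage markers overlapped, at 8508 to 10261 against 6742 to 11567, although 2 of the 15 did not, Adgre1 at 8.41 to 8.67 against 7.11 to 8.28 and Itgam at 7.74 to 8.04 against 6.42 to 7.58. Neutrophil markers summed to 508 to 644 against 493 to 658, and all 10 were dimmer than the filter. The part of stromal and myeloid cells in the Pim2, Bcl3 and Cebpb levels was not tested.

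**Figure D2:**
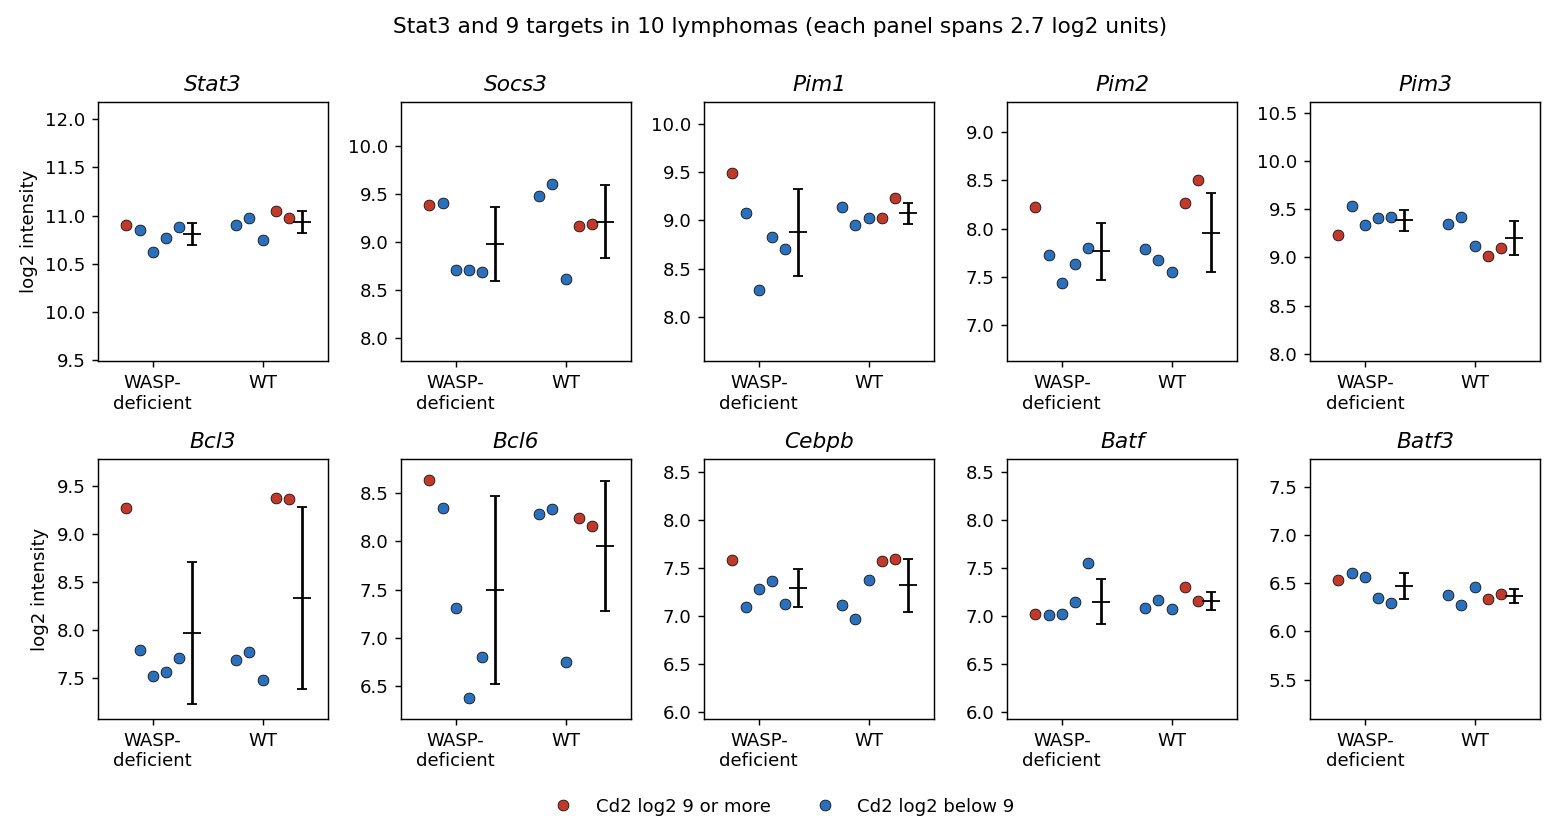
Log2 intensity (vertical axis) of each gene in each lymphoma, WASP-deficient left and WT right, with red points for the 3 Cd2-high arrays and blue for the 7 Cd2-low arrays; black bars give mean and SD of 5 arrays. Red points stand clear of blue ones for Pim2, Bcl3 and Cebpb, and Socs3 and Bcl6 each have 4 low points, 3 of them WASP-deficient.

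Batf and Batf3 encode small leucine zipper proteins that pair with JUN proteins and, in T cells, bind DNA together with IRF4. Batf was at 7.02, 7.01, 7.02, 7.15 and 7.55 in WASP-deficient lymphomas, against 7.08, 7.17, 7.07, 7.30 and 7.16 in WT lymphomas. WASP-deficient array 5 stood above all others, and the difference of -0.01 (SE 0.11, interval -0.26 to 0.24) was the smallest of the 10. Batf3, also known as a lineage factor of cross-presenting dendritic cells, was at 6.53, 6.61, 6.57, 6.35 and 6.30 against 6.38, 6.27, 6.46, 6.34 and 6.39 in WASP-deficient and WT lymphomas. Its means of 6.47 and 6.37 were only just above the filter at 6.35, its range of 0.34 was the narrowest of the 10, and the difference was 0.10 (SE 0.08, interval -0.08 to 0.29). Dendritic cell markers in WASP-deficient lymphomas summed to 1983 to 2909 on the linear scale, and to an overlapping 1734 to 2285 in WT lymphomas. Of the 12 markers, 6 were dimmer than the filter, Clec9a and Xcr1 among them. Brighter markers weigh most in such a sum, above all Fscn1 at 7.85 to 10.75, Ccr7 at 7.47 to 9.53 and Bst2 at 7.91 to 9.12. Whether the share of dendritic cells differed was not tested.

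Spread between tumours divided the 10 genes evenly. The ranges of Bcl6, Bcl3, Pim1, Pim2 and Socs3 were above the median range of all genes tested, 0.65, and those of Cebpb, Batf, Pim3, Stat3 and Batf3 below it. Bcl6 and Bcl3, at 2.26 and 1.89, were wider than 95.6% and 93.1% of genes. The low values were spread over 6 arrays, with WASP-deficient array 3 the lowest for 3 genes and WT arrays 2 and 3 for 2 each.

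**Figure D3:**
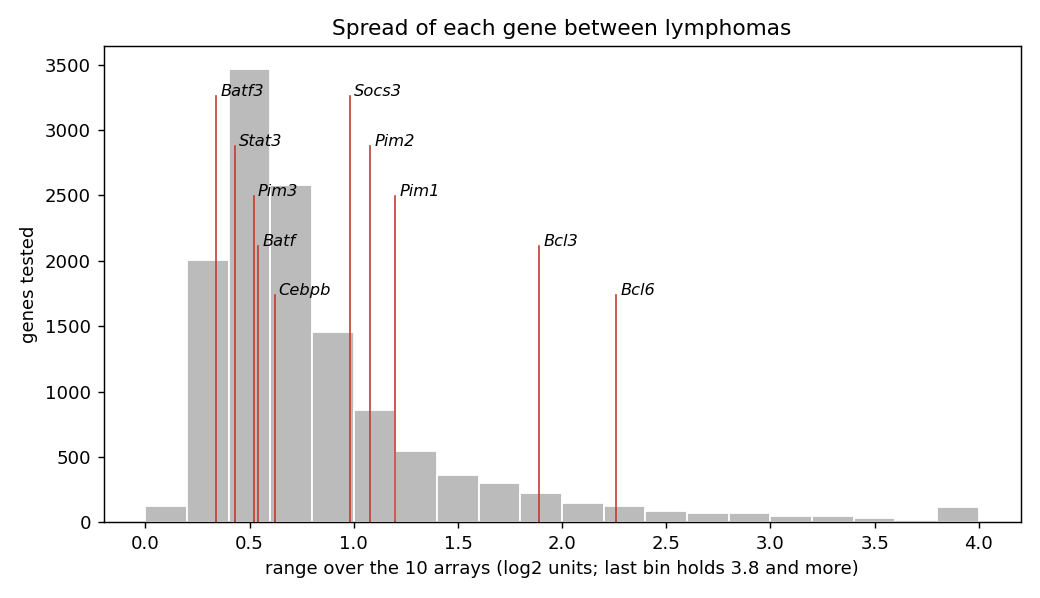
Number of genes tested (vertical axis) by range over the 10 arrays in log2 units (horizontal axis, bins of 0.2); red lines mark the 10 genes, at heights that carry no value. Stat3 at 0.43 and Batf3 at 0.34 lie left of the median of 0.65, and Bcl3 at 1.89 and Bcl6 at 2.26 lie in the right tail.

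The comparison of genotypes asks whether loss of WASP alters the transcript levels of these genes in NPM-ALK lymphoma. None of the 10 genes passed (0 at limma adjusted p under 0.05, and 0 at an unadjusted p under 0.05), against 0.00789% and 2.89% of all genes tested. With 1 array left out, 2 genes had an unadjusted limma p under 0.05, Pim1 without WASP-deficient array 1 and Pim3 without WT array 2. Their differences were then -0.35 and 0.24, with limma adjusted p of 0.659 and 0.967. Was was the 1 gene that passed, at 8.08 ± 0.13 in WASP-deficient and 9.22 ± 0.10 in WT lymphomas (SD, n = 5 each, limma adjusted p = 0.00088). That call was lost with the Xist level as a covariate, at a difference of -1.06 and a limma adjusted p of 0.376. None of the 10 had genotypes that did not overlap, which 0.568% of all genes had. Values were lower in WASP-deficient lymphomas for 8 genes and higher for 2, with a median of -0.16 over the 10 and -0.004 over all genes, of which 51.1% had lower values. Exact two-sided permutation tests over the 10 arrays, 1 per gene and not adjusted, gave p from 0.0952 to 0.984, where 0.007937 is the smallest these groups allow. Intervals were wide for Bcl6 and Bcl3, so that changes of 0.351 to 1.5 times and 0.374 to 1.61 times the WT level remain inside them.

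Genotype and Xist went together on 9 of 10 arrays, so a difference between genotypes and one between sexes cannot be well separated here. With the Xist level as a covariate, the sign turned for 6 of the 10 genes (Stat3, Socs3, Pim2, Bcl3, Bcl6 and Batf), none past the threshold.

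**Figure D4:**
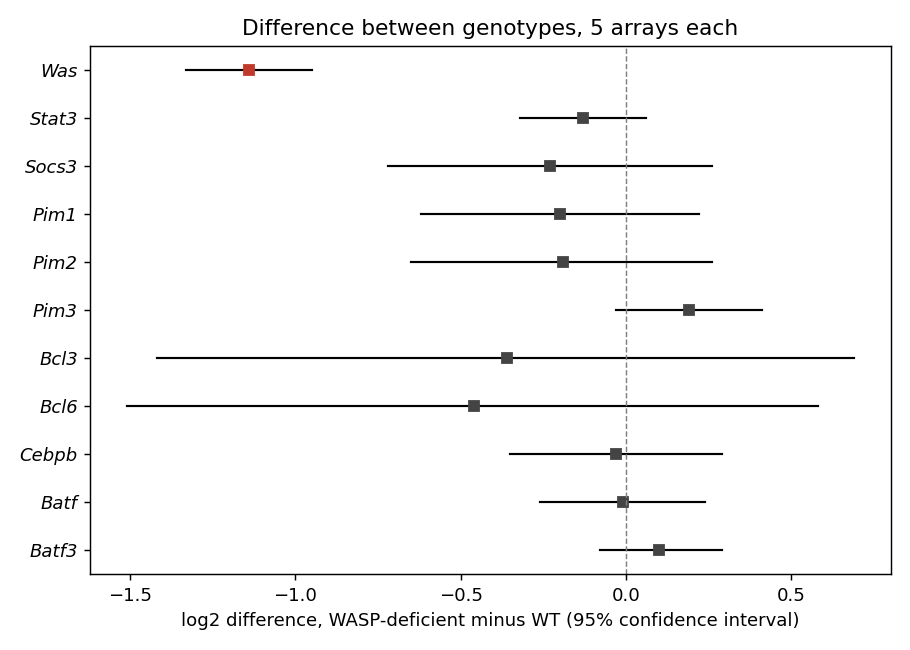
Log2 difference, WASP-deficient minus WT (horizontal axis, squares, with 95% confidence intervals as lines), for Was and the 10 genes, 5 arrays per genotype. The Was interval, -1.33 to -0.95, lies clear of 0, and those of the 10 genes all contain 0.

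Genes around STAT3 were taken from 6 lists with 96 names, of which 90 had a single-gene probe set and 79 were tested. With genotype 0 of the 79 passed, and 3 had an unadjusted limma p under 0.05, or 3.8% against 2.89% of all genes. These were Fos, an AP-1 gene, at 7.01 ± 0.17 in WASP-deficient and 7.36 ± 0.19 in WT lymphomas, Tnfaip3, an inhibitor of NF-κB signalling, at 9.11 ± 0.19 and 9.33 ± 0.05, and Pias3, an inhibitor of STAT3 binding to DNA, at 7.79 ± 0.26 and 7.48 ± 0.15 (SD, n = 5 each, limma adjusted p = 0.999 for each). Between the Cd2 classes 16 of the 79 lay above and 11 below on the Cd2-high arrays, so that 34.2% did not overlap, against 30.5% of all genes.

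All 8 tested kinases and STAT genes had lower values in WASP-deficient lymphomas, against 51.1% of all genes. Their median difference was -0.07 and 0 passed the test. The difference was -0.02 for Jak2 and -0.21 for Jak1. With the Xist level as a covariate, that of Jak1 was -0.06. Jak1 was at 11.05 ± 0.12 against 11.26 ± 0.20 in WT (SD, n = 5 each). Stat4, a STAT of interleukin 12 signalling, had a range of 3.30 and lay at 10.34 to 11.05 on Cd2-high and 7.76 to 9.28 on Cd2-low arrays, and Jak2 ranged from 8.74 to 9.94 without separating the classes.

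Of 12 tested receptors and ligands that act through STAT3, 5 lay above all Cd2-low arrays on the Cd2-high arrays and 0 below, a share of 41.7% against 14.4% of all genes. In the other lists with over 1 tested gene this share was 12.5% of the kinases and STAT genes, 11.8% of the inhibitors, 20.7% of the other targets and 16.7% of the partners of Batf, and the receptors are the list where it was largest. Counted in either direction, 41.7% of the receptors and ligands did not overlap, against 30.5% of all genes. Il6ra, which encodes the interleukin 6 binding chain, was at 10.24 to 10.59 on Cd2-high and 7.80 to 9.49 on Cd2-low arrays. Il6st, its signalling partner gp130, was at 10.78 to 10.84 and 9.89 to 10.36, and the others were Il10ra, Il21r and Il9r. These 4 besides Il6ra were named after their values were seen, and the summed stromal markers were higher on the same arrays. Il10, an anti-inflammatory cytokine, ranged from 6.15 to 9.62 and was lowest on WT arrays 4 and 5. Il10rb was at 8.21 ± 0.19 in WASP-deficient and 7.99 ± 0.11 in WT lymphomas, and Osm, a cytokine of the interleukin 6 family, at 6.37 ± 0.15 and 6.58 ± 0.34 (SD, n = 5 each), and 0 of the 12 passed with genotype.

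Among 17 inhibitors of STAT signalling, 10 had higher and 7 lower values in WASP-deficient lymphomas and 0 passed. Socs2 ranged over 2.03 log2 units, with 8.14 on WASP-deficient array 1 and 6.10 on WT array 2. Cish, a relative of the SOCS genes, was at 6.59 ± 0.14 and 6.41 ± 0.14 in WASP-deficient and WT lymphomas (SD, n = 5 each). The tyrosine phosphatase genes Ptpn2 and Ptpn6 lay higher on all Cd2-high arrays, and Ptpn1, Pias1 and Socs7 lower. These 5, named after their values were seen, are 29.4% of the list, against 30.5% of all genes that did not overlap.

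The 29 tested genes of other ALK and STAT3 targets divided into 14 with higher and 15 with lower values in WASP-deficient lymphomas, 0 past the test. Il2ra, which encodes the alpha chain of the interleukin 2 receptor, had the widest range of them, 5.04, from 5.47 on WT array 3 to 10.51 on WASP-deficient array 1. Ccnd2, which encodes a D cyclin, reached 11.51 on WASP-deficient array 5 and lay at 7.86 to 8.44 on the Cd2-high arrays, below the 8.64 to 11.51 of the rest.

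Partners of Batf and relatives of Bcl3 and Cebpb gave 12 tested genes, 10 with higher and 2 with lower values in WASP-deficient lymphomas and 0 past the test. Over all genes tested, 51.1% had lower values. Rel, an NF-κB subunit, was at 8.87 to 9.10 on Cd2-high and 7.04 to 7.62 on Cd2-low arrays, in the direction of Bcl3. Nfkb2, which encodes the precursor of the p52 partner of BCL3, went the other way, at 7.87 to 8.83 and 9.37 to 10.03. Irf8 was at 8.06 ± 0.23 in WASP-deficient and 7.81 ± 0.26 in WT lymphomas, and Maf at 7.74 ± 0.44 and 7.43 ± 0.18 (SD, n = 5 each).

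The loci joined in NPM-ALK varied little on their mouse probe sets. Npm1 was at 11.41 ± 0.13 in WASP-deficient and 11.37 ± 0.08 in WT lymphomas (SD, n = 5 each). Alk, at 5.92 to 6.45, was dimmer than the filter and was not tested. Whether its probe set detects the transgene is not known here.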

How the data were processed

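Total RNA of 10 primary lymphomas was measured on 1 array per mouse. The authors deposited probe set intensities made with RMA, per the submitters' processing notes, and RMA corrects background, normalizes quantiles over arrays and summarises probes. Not given in the sources used here are the RMA version, genome build and annotation. With deposited intensities of 3.309 to 15587.9, a linear scale, log2 was taken. No depth exists for arrays, and their number limits the precision. No unused column was present.

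Of 34760 probe sets, 21640 had 1 symbol in the platform annotation, 1321 had several and 11799 were not named here. Symbols were checked by gene ID against RefSeq (GRCm38.p6), with 21553 matches and 0 changes. Probe sets whose mean lay under the 40th percentile (log2 6.35) were left out, and the brightest probe set was kept for each of 12670 genes. Genotypes, taken from the sample titles, were compared in R 4.3.3 by lmFit and eBayes of limma 3.58.1 without covariates, WASP-deficient minus WT, adjusted by Benjamini-Hochberg over all genes tested with a threshold of 0.05. The fit was tested on simulated data. The labels call the replicates biological.

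Alternatives changed the filter, probe set choice, pseudocount, normalization, moderation, array weights and covariates, or left out 1 array. The genes and lists were chosen with earlier results of these data known. Named genes were the 10 and Was and Cd2, the 2 nearest genes for each of the 3 widest-ranging of the 10, and in each pathway list the 2 of smallest p and the 2 of widest range. Others are marked where named, and Xist, Alk and cell markers were named as checks. Promoters came from RefSeq. Same-numbered arrays of the genotypes correlated at -0.71 to 0.37 in their deviations from the group means, so the numbers do not pair them.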

Additional observations from a re-analysis of the deposited data

Results flagged for a closer look

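Among 22 sets of 5 arrays (the 10 genes and Was, in each genotype), 3 held an array far from the other 4 of its group by Dixon's ratio (critical value 0.71), and chance flags about 1 in 20. Bcl3 on WASP-deficient array 1 was at 9.27, with the other 4 at 7.52 to 7.79. That array is the only Cd2-high one of its genotype. Bcl6 on WT array 3 was at 6.75, against 8.16 to 8.34 on the other WT arrays. Batf on WASP-deficient array 5 was at 7.55, against 7.01 to 7.15 on the other WASP-deficient arrays.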

How the results depend on the processing

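None of the 10 genes passed under any of 22 alternatives, with a lowest limma adjusted p of 0.659. Of 217 differences of these genes, 196 kept direction and 21 reversed, all from values that had not passed. The Xist covariate reversed Stat3 (0.02), Socs3 (0.24), Pim2 (0.14), Bcl3 (0.35), Bcl6 (0.54), Batf (0.08), Osm (0.01), Irf8 (-0.0002) and Npm1 (-0.0035). Array weights reversed Pim2 (0.01), Bcl3 (0.05), Cebpb (0.09) and Batf (0.02), the Cd2 covariate reversed Cebpb (0.05), and the Cd2-low arrays alone reversed Cebpb (0.07), Batf (0.07) and Osm (0.03). With 1 array left out, Cebpb ran from -0.12 to 0.03, Batf from -0.11 to 0.03, and the others kept their signs but moved, Pim1 from -0.35 to -0.05, Pim2 from -0.31 to -0.06, Bcl3 from -0.69 to -0.11, Bcl6 from -0.77 to -0.18 and Socs3 from -0.38 to -0.13. The lowest size was without WASP-deficient array 3 for Pim1, WASP-deficient array 4 for Bcl6, WT array 5 for Pim2, WT array 4 or 5 for Bcl3 and WT array 2 for Socs3. The count of all genes called, 1 in the main setting (Was), was 2 among Cd2-low arrays, 0 with the Xist covariate, 0 in the replicate block fit (Was -1.14, adjusted p = 0.136), and 1 to 4 with 1 array left out, with 2 without WASP-deficient array 1 and 4 without WT array 3. The block changed no call of the 10 genes, and no array of a genotype correlated best with its own number in the other. Genes that did not overlap between the Cd2 classes, 3 of 10, were 3 to 4 with 1 array left out (4 without WASP-deficient array 1, WT array 3 or WT array 4), and 2 under the filter at the 60th percentile, where Batf, Batf3 and Cebpb dropped out. The cause of these shifts was not tested.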

Other observations

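Irf4, which encodes a factor that binds DNA with BATF and was chosen for naming after its values were seen, was dimmer than the filter on average and was not tested. It was at 5.09 to 5.64 on WASP-deficient arrays 3, 4 and 5 and WT array 3, the arrays low for Bcl6 and Socs3, and at 6.34 to 6.74 on the other 6. Of the 12 tested partners of Batf and relatives, 0 had these 4 arrays below all others, against 3.05% of all genes tested. Tnfrsf8, which encodes the lymphoma marker CD30, and Jun, an AP-1 partner of the BATF proteins, were likewise named after their values were seen. They lay with Bcl3 on the Cd2-high side. Tnfrsf8 was at 10.31 to 10.50 on Cd2-high and 7.96 to 9.01 on Cd2-low arrays, and Jun at 9.04 to 9.79 and 7.91 to 8.33. In the list that holds Tnfrsf8, the other ALK and STAT3 targets, 6 of 29 genes lay above and 5 below. In the list that holds Jun, the partners of Batf, 2 of 12 lay above and 2 below. Over all genes tested, 14.4% lay above and 16.1% below.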
